A study of Homo sapiens with 12 samples.

Results

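The 48 genes described here encode the SR proteins, the hnRNP proteins and the SF3A and SF3B subunits, chosen by symbol from the 27968 gene symbols measured. They are 14 SR genes (12 named SRSF, with TRA2A and TRA2B), 25 hnRNP genes, 3 SF3A genes and 6 SF3B genes. The rule uses symbols and no measured value, although it was set with earlier results of these data known. Another 5 symbols with matching names were left out because they name a pseudogene or a read-through transcript: HNRNPA1P10, HNRNPA1P33, HNRNPA3P1, HNRNPKP3 and HNRNPUL2-BSCL2. Counts were found for 45 of the 48 genes, and 44 had enough reads to be tested. The 4 that were not tested are HNRNPCL1, HNRNPCL2, HNRNPCL3 and HNRNPCL4, which are intronless copies of HNRNPC. The first 3 of these were at 0 in all 12 libraries and HNRNPCL4 had a single count.

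Pre-mRNA splicing removes introns in the nucleus. SR proteins bind exonic enhancers and recruit the spliceosome, and many hnRNP proteins bind silencers and oppose them, so that their balance helps set which exons are kept. SF3A and SF3B are parts of the U2 snRNP, the particle that recognises the branch point of the intron. Many SR and hnRNP genes limit their own mRNA by including exons that lead to its decay.

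The study compared flat and extracellular matrix culture of 2 untreated human cancer cell lines, each of which stands for 1 tumour. A549 derives from a lung tumour and MDA-MB-231 from a tumour of the breast. In 2D culture the cells grew in DMEM with 10% FBS and were harvested at about 80% confluence. In 3D culture the same medium was used with Matrigel, a basement membrane gel, and RNA was taken on day 4. Each of the 4 groups has 3 libraries of ribosome-depleted total RNA, so confluence and time in culture changed together with the matrix. Nothing in the labels says that the 3 libraries came from separate cultures, and the p-values then measure only the spread between these libraries.

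Library totals ran from 5609327 (A549 3D replicate 2) to 28171901 expected counts (A549 3D replicate 3). The A549 3D libraries varied more than the other groups, with a biological coefficient of variation of 0.180 against 0.0377 to 0.0554. Ribosomal RNA took 0.320 to 0.497% of counts in A549 2D, 3.59 to 16.6% in A549 3D, 1.49 to 1.53% in MDA-MB-231 2D and 4.75 to 7.30% in MDA-MB-231 3D. The RNase P and RNase MRP RNAs took 1.24 to 1.33% in A549 2D and 5.04 to 6.13% in A549 3D, but at most 0.00214% in any MDA-MB-231 library. Mean fragment length was 175 to 186 bases in A549 2D, 133 to 140 in A549 3D, 207 to 216 in MDA-MB-231 2D and 180 to 187 in MDA-MB-231 3D. These features of the libraries moved with culture, and their part in the results below was not tested. The summed TPM (the deposited transcript abundance, a level corrected for length) of 10 A549 marker genes was at least 12170 in A549 and at most 1179 in MDA-MB-231, although NKX2-1 was at 0 in A549 2D. Of the 8 A549 marker genes tested, 6 were higher and 2 lower in A549 2D than in MDA-MB-231 2D. In 3D, 7 were higher and 0 lower in A549. A list of 10 genes read for MDA-MB-231 held VIM, ZEB1, CD44, AXL, CAV1, ESR1, PGR, ERBB2, GATA3 and FOXA1, not all of them markers of that line. Their sum was 4327 to 4496 TPM in MDA-MB-231 and 454 to 1237 in A549. Of the 8 tested, 5 were lower and 3 higher in A549 2D than in MDA-MB-231 2D. Of 7 leukocyte markers, CD3E and MS4A1 were at 0 everywhere, and the sum was 5.50 to 6.43 TPM in A549 2D, 17.1 to 30.1 in A549 3D, 129 to 148 in MDA-MB-231 2D and 247 to 274 in MDA-MB-231 3D. Among 6 fibroblast markers DCN was at 0 in every library, and no library exceeded a sum of 4.81 TPM.

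On the TPM scale hnRNP mRNAs were the most abundant of the 4 families in every group. Summed hnRNP levels were 2801 to 2847 TPM in A549 2D, 1359 to 1641 in A549 3D, 7819 to 8559 in MDA-MB-231 2D and 5710 to 5859 in MDA-MB-231 3D. Summed SR levels in the same order were 1265 to 1290, 469 to 499, 1812 to 1934 and 1265 to 1301 TPM. The SF3B sums were 640 to 658, 394 to 491, 1530 to 1614 and 1224 to 1289 TPM, and the SF3A sums were the lowest at 68.8 to 74.4, 36.2 to 48.0, 298 to 315 and 275 to 291 TPM. TPM divides by a total that the structural RNAs above also fill, so the sums of the groups are not on one scale.

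Within the SR family, SRSF2 led in A549 2D with 259 ± 5.2 TPM (SD, n = 3), ahead of SRSF9 with 221 ± 4.6. SRSF9 led in the other 3 groups, with 94.1 ± 7.0, 260 ± 23.4 and 283 ± 8.9 TPM, but in MDA-MB-231 2D its lead over SRSF3 at 241 ± 8.9 lay within the spread. SRSF12 was the lowest SR mRNA, at 1.01 ± 0.03 TPM in A549 2D and below that in the other groups. In the hnRNP family HNRNPK was highest in A549 2D with 373 ± 6.7 TPM. HNRNPA1 had the highest mean in both 3D groups, at 270 ± 56.2 TPM in A549 and 1056 ± 37.6 in MDA-MB-231. In A549 3D its libraries, at 207 to 317 TPM, overlapped those of HNRNPK at 186 to 242. HNRNPA2B1 and HNRNPA1 could not be ranked in MDA-MB-231 2D, at 1213 ± 102.4 and 1200.4 ± 72.1 TPM. SF3A3 was the highest SF3A subunit throughout. SF3B6, which contacts the branch point adenosine, was the highest SF3B mRNA in every group except A549 2D, where SF3B1 at 185 ± 0.9 TPM and SF3B6 at 185 ± 1.6 were level. HNRNPA1 shares sequence with HNRNPA1L2 and the left-out HNRNPA1P10, and HNRNPUL2 with its read-through, so the split of reads among these is uncertain.

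SR mRNAs fell in A549 cells moved from 2D to 3D. With edgeR's quasi-likelihood test at an adjusted p under 0.05, 12 of the 14 SR genes were lower in 3D and 0 were higher. Of all 15304 genes tested, 31.5% were lower and 34.1% higher, 65.6% in either direction. Over the 4 families 26 of 44 genes were lower and 5 higher. The median SR change was -0.75 on the log2 scale, against 0.03 for all genes tested. In bulk RNA, fewer cells of a kind and less RNA per cell cannot be told apart. The exceptions were SRSF5 and SRSF8, with changes of -0.21 and 0.07 that did not pass. The A549 2D and 3D libraries did not overlap for 13 SR genes, and for 30 of the 44 genes, where 64.8% of all genes did not. Under 19 alternative settings 11 to 14 SR genes were called lower and 0 higher, and 9 were lower beyond a log2 change of 0.5. No share of all genes is given for that bound.

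SRSF2, a component of nuclear speckles that activates exons, showed the largest fall in A549 among the SR genes read in both lines. Its level was 395, 395 and 392 CPM (counts scaled to a common library total with TMM factors) in the A549 2D libraries and 170, 174 and 159 in 3D. The groups lay far apart, at a fold of 0.425 (log2 change -1.24 ± 0.07 SE, adjusted p = 6.73e-10). SRSF3, the smallest SR protein, was at 435, 432 and 411 CPM in 2D and 196, 218 and 176 in 3D. That was a fold of 0.460 (log2 change -1.12 ± 0.08 SE, adjusted p = 7.80e-09), again with no overlap between cultures. SRSF7, which also serves in mRNA export, was at 209, 211 and 206 CPM in 2D and 95.4, 101 and 106 in 3D. It fell by 1.05 ± 0.07 on the log2 scale (adjusted p = 3.24e-09). SRSF1, the founding member of the family and a known oncoprotein, went from 642, 636 and 617 CPM to 283, 364 and 249. Its 3D libraries were uneven, with replicate 2 the highest, but all lay below the 2D libraries (log2 change -1.09 ± 0.11 SE, adjusted p = 2.93e-07).

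The other falls in A549 were smaller. SRSF10, a splicing repressor when dephosphorylated, changed by -0.79, SRSF11 by -0.78, TRA2B by -0.72, SRSF4 by -0.70, SRSF9 by -0.63, TRA2A by -0.41 and SRSF6 by -0.22 on the log2 scale. TRA2A and TRA2B bind GA-rich exonic enhancers. SRSF6 was no longer called when the A549 libraries were fitted alone (adjusted p = 0.0778). SRSF12, a repressor of the family found in few tissues, had only 50, 53 and 45 counts in 2D and 11, 12 and 23 in 3D. Its change of -1.05 was not called without A549 3D replicate 3 (-0.60, adjusted p = 0.147) or with DESeq2 (-0.93, adjusted p = 0.0512).

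**Figure D1:**
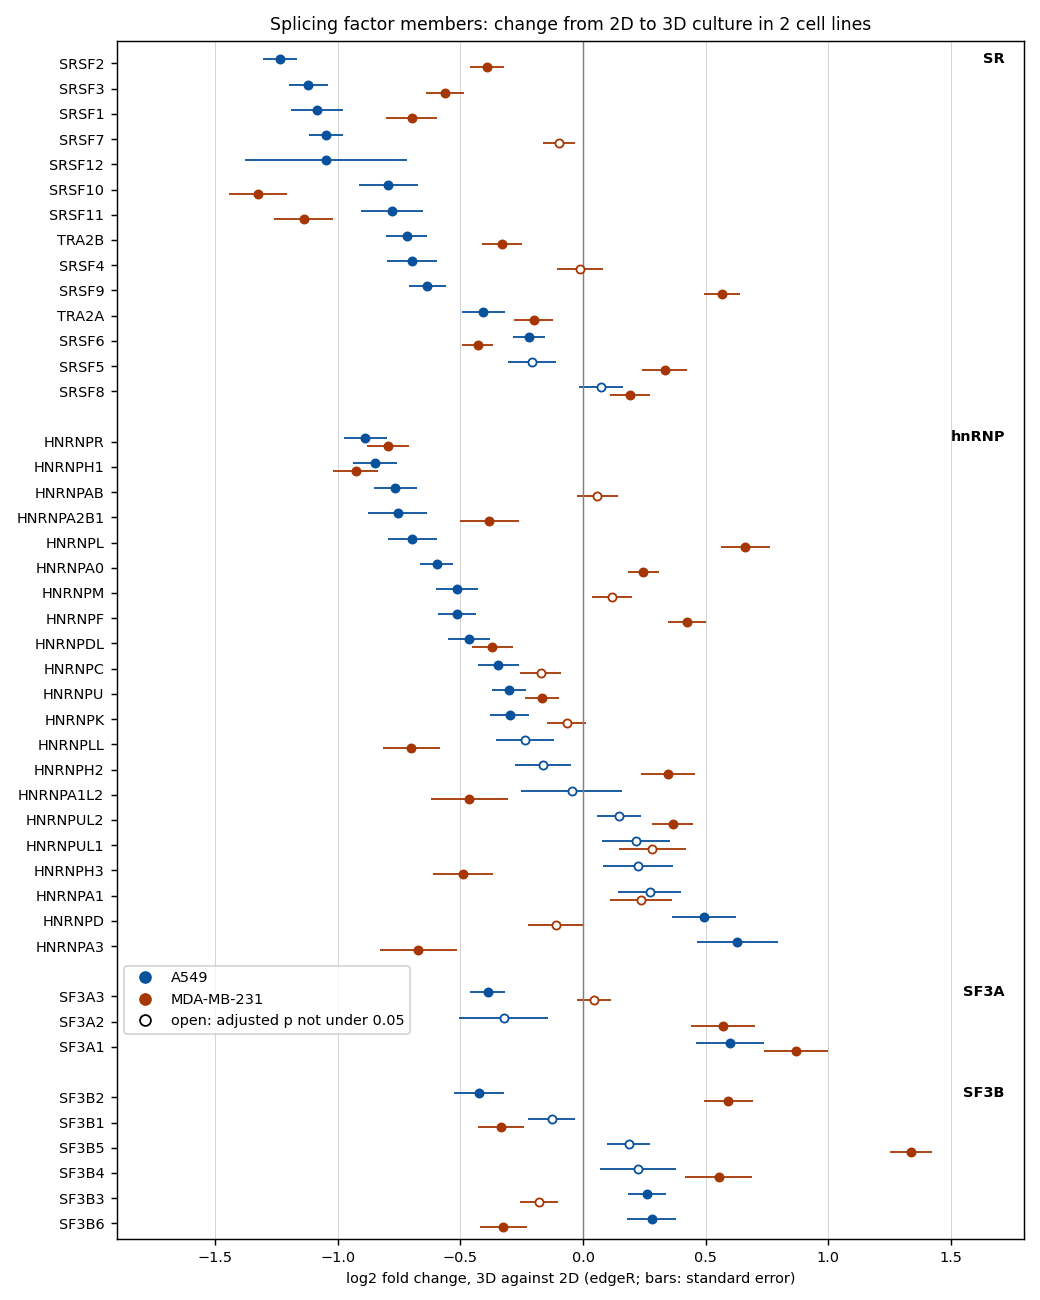
Change from 2D to 3D of the tested genes in A549 (blue) and MDA-MB-231 (brown), grouped by family and ordered by the A549 change; x axis, log2 fold change with its standard error; filled points passed an adjusted p of 0.05. The blue SR points lie at or below 0.07, while the brown SR points run from -1.32 to 0.57; SRSF12 has no point in MDA-MB-231, where it had 1 count.

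In MDA-MB-231, SR genes were called in both directions. There 8 of 14 SR genes were lower in 3D and 3 were higher, against 34.2% lower and 33.4% higher of all genes tested (67.6% either way). Over the 4 families 19 of 44 genes were lower and 13 higher, and the libraries of the cultures did not overlap for 38, where 75.2% of all genes did not. Under the matching 19 settings for this line, 7 to 11 SR genes were lower and 0 to 3 higher, with 11 lower and 0 higher on log2(TPM + 1). In the fit on log2(TPM + 1), 49.0% of all genes were called lower, and the share called higher is not given. The SR median was -0.36, or -0.33 without SRSF12, which had 1 count in the 6 libraries of this line. The falls were largest for SRSF10 and SRSF11. SRSF10 was at 223, 200 and 228 CPM in 2D and 82.9, 93.5 and 83.3 in 3D, a fold of 0.399 (log2 change -1.32 ± 0.12 SE, adjusted p = 1.15e-07). SRSF11 was at 159, 140 and 157 CPM in 2D and 61.8, 72.7 and 72.2 in 3D, with no overlap (log2 change -1.14 ± 0.12 SE, adjusted p = 5.89e-07). SRSF3 went from 336, 325 and 340 CPM to 224, 233 and 221 (log2 change -0.56 ± 0.08 SE, adjusted p = 1.04e-05). SRSF1 changed by -0.70, SRSF6 by -0.43, SRSF2 by -0.39, TRA2B by -0.33 and TRA2A by -0.20. For SRSF2 the fall was -0.25 when effective transcript length entered the fit as an offset. TRA2A lost its call without any of 4 libraries (MDA-MB-231 2D replicates 1 and 3, 3D replicates 2 and 3), with changes of -0.15, -0.22, -0.23 and -0.14.

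SRSF9, a small SR protein with a short RS domain, rose in MDA-MB-231. It was at 120, 101 and 116 CPM in 2D and 168, 160 and 171 in 3D, so that every 3D library was above every 2D library (log2 change 0.57 ± 0.07 SE, adjusted p = 5.73e-06). The change of SRSF9 was 0.12 on log2(TPM + 1) and was not called there. SRSF5, at 138, 127 and 130 CPM in 2D and 153, 174 and 171 in 3D, changed by 0.33 ± 0.09 SE (adjusted p = 0.00458), but by -0.10 on log2(TPM + 1). SRSF8, an intronless relative of SRSF2, was near the threshold at 0.19 (adjusted p = 0.0487), was not called without any of 5 of the 6 MDA-MB-231 libraries, at 0.17 to 0.20, and turned to -0.21 on log2(TPM + 1). SRSF4 and SRSF7, which fell in A549, changed by -0.01 and -0.10 here and did not pass.

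In all, 13 of the 44 genes were lower in 3D in both lines, 8 of them SR genes: SRSF1, SRSF2, SRSF3, SRSF6, SRSF10, SRSF11, TRA2A and TRA2B. The other 5 were HNRNPA2B1, HNRNPDL, HNRNPH1, HNRNPR and HNRNPU. Among all genes tested 16.1% were lower in both lines. SF3A1 was the 1 gene higher in both, where 15.3% of all genes were, but on log2(TPM + 1) it was called higher only in MDA-MB-231. HNRNPA1 and HNRNPUL1 passed in neither line, as did 12.4% of all genes.

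**Figure D2:**
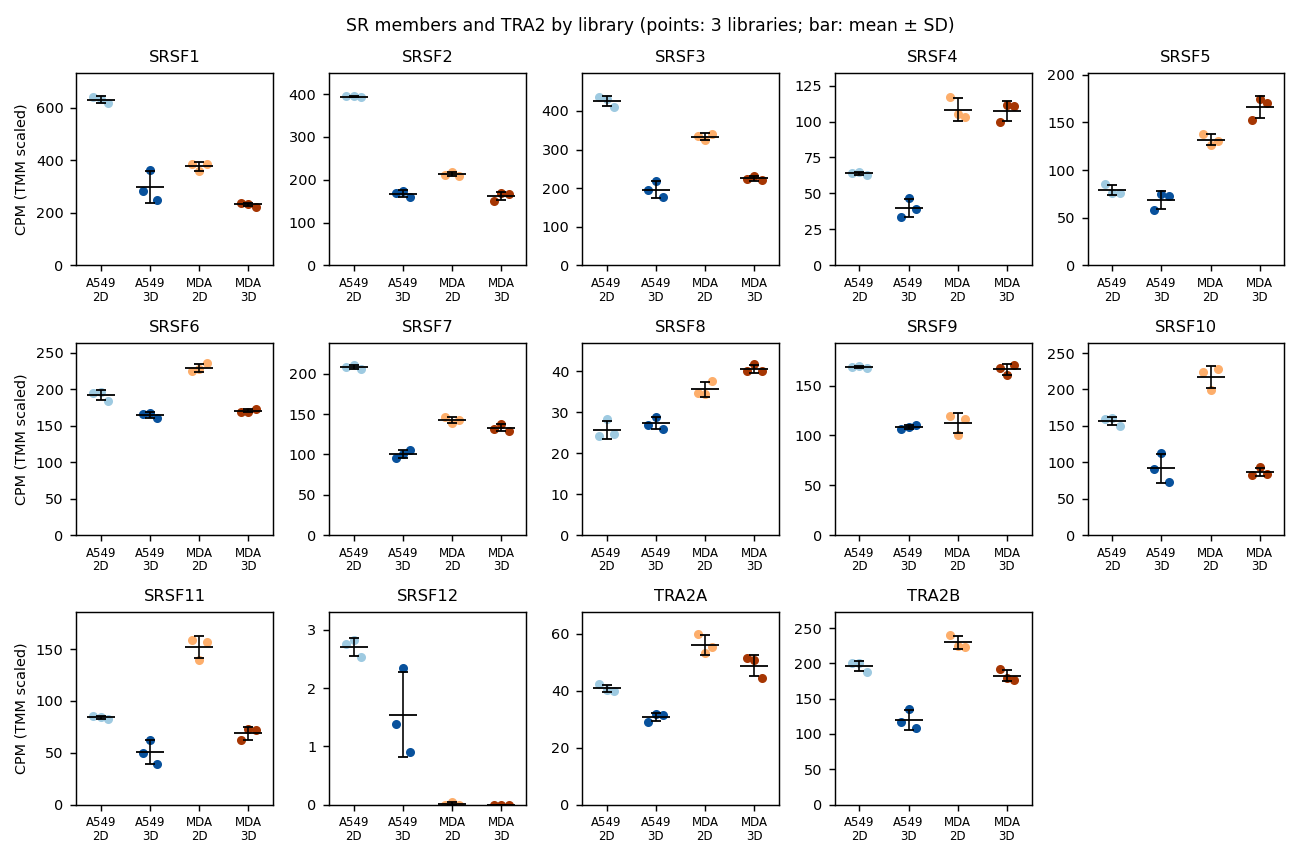
Level of the 14 SR genes in each library (y axis, CPM after TMM scaling, from 0) for A549 and MDA-MB-231 (MDA) in 2D and 3D; points are libraries, bars the mean and SD of 3. SRSF2 drops from at least 392 to at most 174 CPM in A549, and SRSF9 drops in A549 but rises in MDA-MB-231.

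Promoter sequence is shown for a gene that fell in both lines, SRSF3, and for the gene with the largest rise, SF3B5; both were chosen after their values were seen. RefSeq (GRCh38.p14) gave promoter entries for 43 of the 48 genes, and the 250 bases before the annotated start are printed 5′ to 3′ on the gene's strand. Capitals mark matches on either strand to the motifs searched, which were the E-box CACGTG, the CCAAT box, the ETS motif CCGGAAG, the GC box GGGCGG and the TATA box TATAAA, none of whose matches overlap here. The SRSF3 stretch lies at chr6:36594112-36594361 on the + strand and the SF3B5 stretch at chr6:144095574-144095823 on the - strand.
SRSF3: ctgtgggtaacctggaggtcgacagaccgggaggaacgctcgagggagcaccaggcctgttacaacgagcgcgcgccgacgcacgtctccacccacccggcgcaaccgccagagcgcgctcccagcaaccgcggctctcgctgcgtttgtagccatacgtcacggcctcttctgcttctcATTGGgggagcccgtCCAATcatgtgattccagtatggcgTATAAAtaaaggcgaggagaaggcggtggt
SF3B5: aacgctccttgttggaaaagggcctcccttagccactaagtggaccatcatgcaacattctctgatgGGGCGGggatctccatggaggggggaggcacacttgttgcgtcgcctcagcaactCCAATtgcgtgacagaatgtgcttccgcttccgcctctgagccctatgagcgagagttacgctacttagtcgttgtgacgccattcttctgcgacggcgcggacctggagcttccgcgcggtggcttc

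The SRSF3 stretch held CCAAT at 2 places, once on each strand, and TATAAA at 1. SF3B5 held CCAAT at 1 place and GGGCGG at 1. Over all 35116 promoter entries of that length, CCAAT was found in 32.0%, GGGCGG in 42.6% and TATAAA in 10.7%. Among the 15 SR entries, CCAAT was found in 3, GGGCGG in 6 and TATAAA in 3. A match describes these letters only.

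Among the 21 tested hnRNP genes, 12 were lower and 2 higher in A549 3D, where 31.5% of all genes were lower and 34.1% higher. Their median change was -0.30 on the log2 scale. HNRNPR and HNRNPH1, of which the latter binds runs of G, fell most. HNRNPR was at 289, 292 and 273 CPM in 2D and 144, 171 and 148 in 3D, a fold of 0.541 (log2 change -0.89 ± 0.09 SE, adjusted p = 3.17e-07). HNRNPH1 went from 509, 496 and 475 CPM to 239, 308 and 276 without overlap (log2 change -0.85 ± 0.09 SE, adjusted p = 7.29e-07). HNRNPA0 went from 91.3, 94.7 and 88.6 CPM to 59.8, 62.3 and 59.8, a tight fall (log2 change -0.60 ± 0.07 SE, adjusted p = 1.33e-06). HNRNPAB, HNRNPA2B1, HNRNPL, HNRNPM, HNRNPF, HNRNPDL, HNRNPC, HNRNPU and HNRNPK were lower by changes of -0.77 to -0.30.

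HNRNPD and HNRNPA3 were the 2 hnRNP genes called higher in A549 3D, and both rested partly on 1 library. HNRNPD, which binds AU-rich elements and promotes mRNA decay, was at 29.8, 27.5 and 25.8 CPM in 2D and 49.3, 38.9 and 31.0 in 3D. HNRNPA3 was at 73.6, 62.1 and 61.8 CPM in 2D and 137, 101 and 70.9 in 3D, so that its lowest 3D library overlapped the 2D libraries. Their changes were 0.49 (adjusted p = 0.00336) and 0.63 (adjusted p = 0.00341), and 0.28 and 0.34 without A549 3D replicate 1, which also had the most ribosomal RNA. On log2(TPM + 1) HNRNPD changed by -0.064 and HNRNPA3 by 0.051, and neither was called.

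In MDA-MB-231 3D, 9 of 21 hnRNP genes were lower and 5 higher, with a median of -0.11, where 34.2% of all genes were lower and 33.4% higher. The counts were 15 lower and 0 higher on log2(TPM + 1). In that fit 49.0% of all genes were called lower, and the share called higher is not given. HNRNPH1 was at 635, 546 and 577 CPM in 2D and 312, 317 and 295 in 3D, a fold of 0.526 (log2 change -0.93 ± 0.09 SE, adjusted p = 2.59e-07). HNRNPR went from 534, 457 and 500.4 CPM to 265, 303 and 292 (log2 change -0.80 ± 0.09 SE, adjusted p = 7.82e-07). HNRNPLL, a regulator of CD45 splicing in T cells, went from 50.7, 53.8 and 58.2 CPM to 39.0, 30.9 and 30.8 (log2 change -0.70 ± 0.12 SE, adjusted p = 7.19e-05). HNRNPA3 fell by 0.67, HNRNPH3 by 0.49, HNRNPA1L2 by 0.46, HNRNPA2B1 by 0.38, HNRNPDL by 0.37 and HNRNPU by 0.17 on the log2 scale. Leaving out 1 library ended the call for HNRNPU (any MDA-MB-231 library except 2D replicate 2, -0.14 to -0.17), HNRNPA1L2 (2D replicate 3 or 3D replicate 3, both -0.42) and HNRNPA2B1 (2D replicate 1, -0.31).

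HNRNPL, which binds CA repeats, rose most among the hnRNP genes in MDA-MB-231. It was at 212, 228 and 214 CPM in 2D and 344, 352 and 338 in 3D, a fold of 1.58 (log2 change 0.66 ± 0.10 SE, adjusted p = 2.37e-05). HNRNPF, another G-run binder, went from 322, 293 and 299 CPM to 401, 422 and 403 (log2 change 0.42 ± 0.08 SE, adjusted p = 0.000142). HNRNPUL2 was at 152, 132 and 141 CPM in 2D and 184, 182 and 182 in 3D (log2 change 0.37 ± 0.08 SE, adjusted p = 0.00105). HNRNPH2 changed by 0.35 and HNRNPA0 by 0.25. The call of HNRNPH2 was lost without MDA-MB-231 3D replicate 2 (0.24). HNRNPUL2, HNRNPH2 and HNRNPA0 turned to -0.042, -0.086 and -0.17 on log2(TPM + 1), and HNRNPF moved to 0.0059. HNRNPL changed by 0.24 on that scale and was not called.

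**Figure D3:**
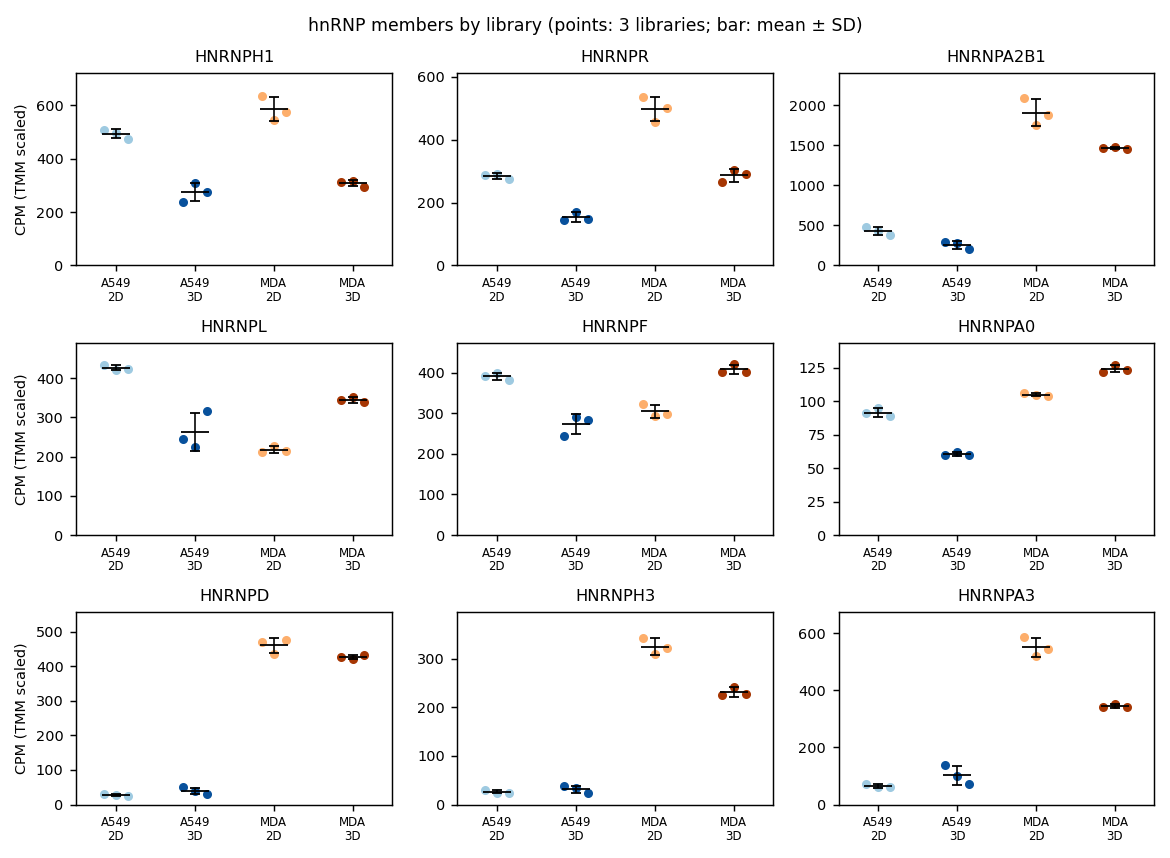
Level of 9 hnRNP genes in each library (y axis, CPM after TMM scaling, from 0) for A549 and MDA-MB-231 (MDA) in 2D and 3D; points are libraries, bars the mean and SD of 3. HNRNPH1 and HNRNPR are lower in 3D in both lines, HNRNPL, HNRNPF and HNRNPA0 go opposite ways, and HNRNPD and HNRNPH3 are at or below 49.3 CPM in every A549 library and at or above 225 in every MDA-MB-231 library.

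Calls among the SF3 subunits went both ways in each line. Of the 3 SF3A genes, SF3A1 was higher and SF3A3 lower in A549 3D, and SF3A1 and SF3A2 were higher in MDA-MB-231 3D. SF3A1, which also contacts the U1 snRNP, was at 46.2, 38.6 and 39.7 CPM in A549 2D and 75.6, 44.5 and 65.8 in 3D. Replicate 2 of the 3D libraries lay inside the 2D range (log2 change 0.60 ± 0.14 SE, adjusted p = 0.00140). The change of SF3A1 in A549 was 0.0038 on log2(TPM + 1) and was not called there. In MDA-MB-231, SF3A1 went from 105, 113 and 101 CPM to 176, 201 and 205, a fold of 1.83 with no overlap (log2 change 0.87 ± 0.13 SE, adjusted p = 2.29e-05). SF3A2 was at 37.2, 42.3 and 37.4 CPM in MDA-MB-231 2D, against 50.8, 59.6 and 62.8 in 3D (log2 change 0.57 ± 0.13 SE, adjusted p = 0.00120). The change of SF3A2 was 0.13 on log2(TPM + 1) and was not called there. SF3A3 fell in A549 from 112, 110 and 106 CPM to 77.9, 84.0 and 88.1 (log2 change -0.39 ± 0.07 SE, adjusted p = 0.000196).

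SF3B5, the smallest SF3B subunit, showed the largest rise of any of the genes. It was at 31.5, 32.2 and 27.4 CPM in MDA-MB-231 2D, against 76.2, 76.1 and 77.7 in 3D, a fold of 2.52 (log2 change 1.34 ± 0.09 SE, adjusted p = 4.12e-09). In A549 it was at 43.3, 42.6 and 42.7 CPM in 2D and 48.1, 43.4 and 53.2 in 3D, a change of 0.19 that did not pass. SF3B2 went opposite ways. It was at 249, 254 and 263 CPM in A549 2D and 196, 153 and 218 in 3D (log2 change -0.43 ± 0.10 SE, adjusted p = 0.00173), and at 296, 289 and 283 CPM in MDA-MB-231 2D, against 404, 445 and 459 in 3D (log2 change 0.59 ± 0.10 SE, adjusted p = 7.84e-05). SF3B4 rose in MDA-MB-231 from 102, 116 and 103 CPM to 148, 170 and 155 (log2 change 0.55 ± 0.14 SE, adjusted p = 0.00198). Neither SF3B2 nor SF3B4 was called in MDA-MB-231 on log2(TPM + 1), at 0.17 and 0.13.

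SF3B1, the subunit most often mutated in cancer, fell in MDA-MB-231 from 389, 384 and 393 CPM to 320, 299 and 305 (log2 change -0.33 ± 0.10 SE, adjusted p = 0.00567). SF3B6 went from 186, 197 and 190 CPM to 143, 159 and 154 (log2 change -0.33 ± 0.10 SE, adjusted p = 0.00699) in the same line. In A549, SF3B6 was at 87.2, 86.2 and 81.8 CPM in 2D and 86.2, 122 and 103 in 3D. That change of 0.28 overlapped and was not called without 2D replicate 2 or 3 or 3D replicate 2 (0.28, 0.24 and 0.16), nor with the A549 libraries fitted alone. SF3B3 was at 299, 289 and 285 CPM in A549 2D and 350, 316 and 379 in 3D (log2 change 0.26 ± 0.08 SE, adjusted p = 0.00789). On log2(TPM + 1), SF3B3 and SF3B6 turned to -0.28 and -0.36 in A549. The SF3B medians were 0.20 in A549 and 0.19 in MDA-MB-231, and -0.45 and -0.23 on log2(TPM + 1).

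**Figure D4:**
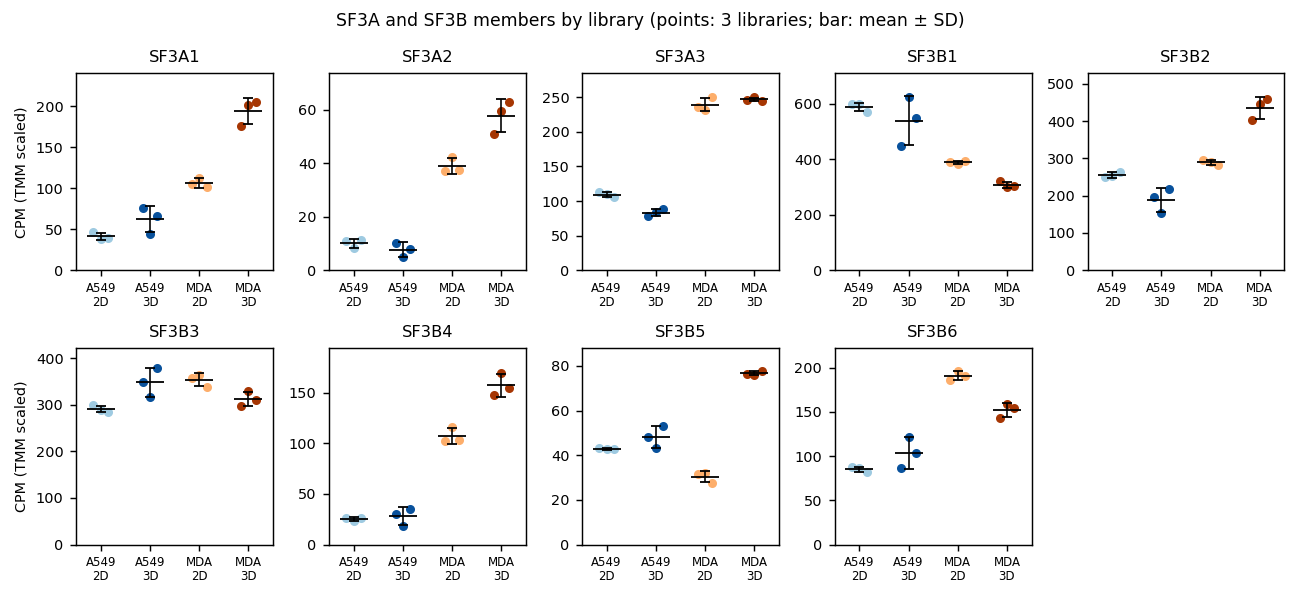
Level of the 9 SF3A and SF3B genes in each library (y axis, CPM after TMM scaling, from 0) for A549 and MDA-MB-231 (MDA) in 2D and 3D; points are libraries, bars the mean and SD of 3. SF3B5 rises from at most 32.2 to at least 76.1 CPM in MDA-MB-231, and SF3B2 falls in A549 while it rises in MDA-MB-231.

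Fewer rises were called in the fit on log2(TPM + 1), which differs from the main fit in scaling, length correction and test together. With RLE or upper-quartile scaling in edgeR, 6 genes were higher in A549 and 13 in MDA-MB-231, close to the 5 and 13 of the main fit. On log2(TPM + 1) the median of all genes tested shifted to -0.38 in A549 and -0.25 in MDA-MB-231, from 0.03 and 0.00 in the main fit. There 0 of the 44 genes were called higher in A549 and only SF3A1 and SF3B5 in MDA-MB-231. The share of all genes called higher in that fit is not given. Lower calls numbered 39 and 30, where 56.4% and 49.0% of all genes were called lower, and included each of the 26 and 19 lower calls of the main fit. Relative to the shifted median, the 26 genes lower and 5 higher in A549 and the 19 lower and 13 higher in MDA-MB-231 all kept their side. These offsets were not tested, and some were small. SF3B6 in A549 lay 0.015 above the median and SRSF8 in MDA-MB-231 0.046, with standard errors of the change of 0.10 and 0.080.

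The change in 3D itself differed between the lines for 25 of the 44 genes, where 56.1% of all genes differed. It was lower in A549 than in MDA-MB-231 for 18 genes and higher for 7, against 26.7% and 29.3% of all genes. SRSF9 (difference -1.20 ± 0.11 SE, adjusted p = 1.94e-07), SRSF7 (-0.95 ± 0.10, adjusted p = 7.76e-07), HNRNPL (-1.36 ± 0.14, adjusted p = 1.04e-06) and SF3B5 (-1.15 ± 0.12, adjusted p = 1.33e-06) had the smallest p among the former. HNRNPA3 (1.30 ± 0.23, adjusted p = 0.000166), SF3B6 (0.61 ± 0.14, adjusted p = 0.00156), SF3B3 (0.44 ± 0.11, adjusted p = 0.00291) and HNRNPH3 (0.71 ± 0.19, adjusted p = 0.00415) led the latter. Of the SR genes, 8 had the lower change in A549 (SRSF1, SRSF2, SRSF3, SRSF4, SRSF5, SRSF7, SRSF9 and TRA2B) and SRSF10 had the higher. SRSF1 was at the edge with a difference of -0.39 (adjusted p = 0.0373) and lost its call without any of 9 libraries, at -0.41 to -0.27. It also lost its call with DESeq2 (-0.36), RLE scaling (-0.36), upper-quartile scaling (-0.35) or structural RNA genes removed (-0.38). HNRNPLL, at 0.46, lost its call without any of 5 libraries, at 0.40 to 0.45.

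A set of 5 genes was called in opposite directions, lower in A549 3D and higher in MDA-MB-231 3D: HNRNPA0, HNRNPF, HNRNPL, SF3B2 and SRSF9. Among all genes 7.21% were. HNRNPA3 and SF3B6 went the other way, as did 6.97% of all genes. None of the 5 was called higher in MDA-MB-231 on log2(TPM + 1), where HNRNPA0 was called lower (-0.17), and SF3B6 was called lower in A549 (-0.36).

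Levels also differed between the lines themselves, although line and library content cannot be told apart here. The share of RNase P and MRP RNA differed as given above, and histone genes took 0.765 to 1.08% of counts in A549 but 0.0174 to 0.0278% in MDA-MB-231. In 2D, 30 of 44 genes were lower and 11 higher in A549, against 38.8% and 42.8% of all genes tested (81.6% either way). In 3D, 35 were lower and 4 higher, against 39.2% and 43.9% (83% either way). The libraries of the lines did not overlap for 43 genes in 2D and 39 in 3D, against 87% and 81% of all genes. The medians were -0.46 in 2D and -0.63 in 3D, where those of all genes were 0.07 and 0.10. The 3 SF3A genes were lower in A549 in both cultures, by changes of -2.85 to -1.13.

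Apart from SRSF12, which had few counts, HNRNPD, HNRNPH3 and HNRNPA3 differed most in 2D. HNRNPD was at 25.8 to 29.8 CPM in A549 2D and 435 to 475 in MDA-MB-231 2D, a fold of 0.0602 (log2 difference -4.05 ± 0.13 SE, adjusted p = 1.59e-13). HNRNPH3 was at 24.4 to 29.7 CPM against 309 to 343 (log2 difference -3.63 ± 0.14 SE, adjusted p = 1.10e-12). For HNRNPA3 the ranges were 61.8 to 73.6 and 522 to 586 CPM (log2 difference -3.07 ± 0.17 SE, adjusted p = 1.07e-10), and for HNRNPUL2 43.9 to 46.8 and 132 to 152 CPM (log2 difference -1.65 ± 0.09 SE, adjusted p = 5.75e-11). For HNRNPA2B1 the log2 difference was -2.14 and for SF3B4 -2.10. In 3D, HNRNPD remained at 31.0 to 49.3 CPM against 421 to 432 (log2 difference -3.45 ± 0.13 SE), HNRNPH3 at 23.4 to 37.2 against 225 to 242 (-2.92 ± 0.14) and SF3A3 at 77.9 to 88.1 against at least 245 (-1.56 ± 0.07).

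Of the 11 genes higher in A549 in 2D, 6 were SR genes, and the other 8 SR genes were lower. Only 1 gene was called higher in A549 in 2D on log2(TPM + 1), and 40 were lower. The shares of all genes called between the lines in that fit are not given, so these counts are not set against the other genes. The median of all genes tested was -0.56 in that fit. SRSF2 was at 392 to 395 CPM in A549 2D and 209 to 218 in MDA-MB-231 2D (log2 difference 0.89 ± 0.07 SE, adjusted p = 7.55e-09), and in 3D it did not differ past the threshold (0.04). HNRNPL was at 422 to 435 CPM against 212 to 228 in 2D (0.97 ± 0.10 SE, adjusted p = 2.00e-07), and lower in A549 in 3D (-0.39 ± 0.10 SE). In 3D, SF3B1 was at 446 to 624 CPM against 299 to 320 (0.81 ± 0.10 SE, adjusted p = 1.09e-06) and HNRNPLL at 53.8 to 74.4 against 30.8 to 39.0 (0.86 ± 0.12 SE, adjusted p = 7.31e-06), but on log2(TPM + 1) both turned, to -0.12 and -0.10. SRSF12 had 148 counts over the A549 2D libraries and 1 over the MDA-MB-231 2D libraries, a ratio of 177 with a 95% exact counting interval of 31.3 to 7052. In 3D it had 46 and 0 counts, at least 17.9-fold higher in A549 at a floor of 3 counts over the group. It was tested only because of its A549 reads, and the interval and floor cover counting error only.

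Transcript usage was read from the deposited gene length, which is the mean length of a gene's transcripts weighted by their estimated abundance. It varied for 32 of the genes. With limma at an adjusted p under 0.05, 7 were longer and 4 shorter in A549 3D, against 6.83% longer and 4.46% shorter of the 9196 genes tested (11.3% either way). In MDA-MB-231, 2 were longer and 2 shorter, against 2.47% and 3.84% (6.31% either way). The change in length differed between the lines for 7 of the genes, 5 with the higher and 2 with the lower change in A549, against 3.66% and 2.06% of all (5.72% either way). Lengths of single transcripts were not used here, so these shifts do not name the transcript that gained.

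SRSF2 mRNA became shorter in both lines. Its mean length was 2136, 2132 and 2145 bases in A549 2D and 2044, 2081 and 2042 in 3D, a change of -3.85% (adjusted p = 0.00254). In MDA-MB-231 it was 2167, 2179 and 2204 bases in 2D and 1991, 1989.8 and 1986 in 3D, a change of -8.89% (adjusted p = 4.4e-05), and the difference between lines passed (adjusted p = 0.00547). That difference was not called when replicate number was fitted as a block (adjusted p = 0.07). SRSF10 went from 6412, 6309 and 6177 bases in A549 2D to 5722, 5751 and 5661 in 3D, a change of -9.32% (adjusted p = 0.000460). In MDA-MB-231, SRSF10 was at 5731, 5779 and 5749 bases in 2D and 5487, 5554 and 5651 in 3D, which did not pass. SRSF6 went from 3838, 3852 and 3840.0 bases in MDA-MB-231 2D to 3800, 3790 and 3790 in 3D, a change of -1.31% (adjusted p = 0.000246). In these genes the level fell as the mean length did.

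HNRNPUL1 mRNA became longer in both lines with no called change in level. It was at 3801, 3784 and 3802 bases in A549 2D and 3928, 3903 and 3873 in 3D, a change of 2.78% (adjusted p = 0.00433). In MDA-MB-231 it was at 3760, 3730 and 3743 bases in 2D and 3791, 3843 and 3820 in 3D, a change of 1.98% (adjusted p = 0.0308) that lost its call with MDA-MB-231 fitted alone (adjusted p = 0.0668) and without any MDA-MB-231 library except 3D replicate 1, at 1.65 to 2.19%. HNRNPLL, SRSF11, HNRNPAB and HNRNPL were longer in A549 3D by 3.51, 2.39, 2.38 and 1.30%. HNRNPLL lost its call without any A549 2D library, at 3.32 to 3.62%, and SRSF11 without any A549 library except 3D replicate 3, at 1.75 to 2.50%. The remaining calls, HNRNPR, HNRNPU, HNRNPC and SRSF7 in A549 and HNRNPK in MDA-MB-231, were shifts of at most 0.505% of the length, and the calls of HNRNPR, SRSF7 and HNRNPK were lost without at least 4 single libraries each (0.331 to 0.390%, -0.0827 to -0.0673% and 0.439 to 0.508%). Fragments were shorter in 3D in both lines, and the part of fragment length in these shifts was not tested.

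**Figure D5:**
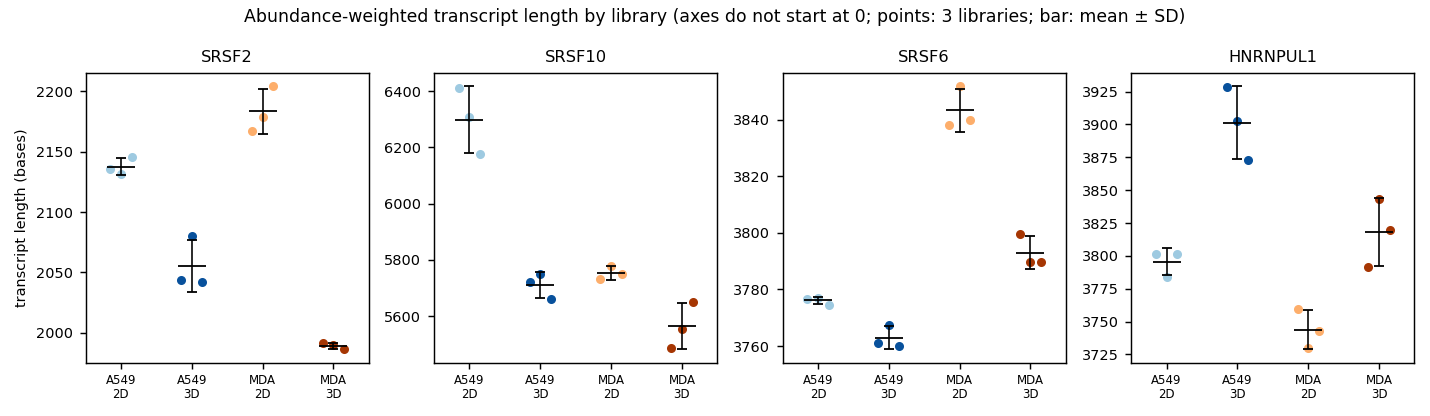
Abundance-weighted mean transcript length of SRSF2, SRSF10, SRSF6 and HNRNPUL1 in each library (y axes in bases, not starting at 0) for A549 and MDA-MB-231 (MDA) in 2D and 3D; points are libraries, bars the mean and SD of 3. SRSF2 is shorter in 3D in both lines, from at least 2132 to at most 2081 bases in A549 and from at least 2167 to at most 1991 in MDA-MB-231, and HNRNPUL1 is longer.

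The genes that work with these factors were read from 10 lists with 189 genes, of which 183 were tested. In A549 3D, 103 were lower and 27 higher, with a median of -0.28, where 31.5% of all genes were lower and 34.1% higher. In MDA-MB-231 3D, 77 were lower and 66 higher, with a median of -0.06, where 34.2% of all genes were lower and 33.4% higher. The counts of each list below are to be read against these shares. Among 8 tested kinases and importers of SR proteins, 6 were lower and 1 higher in each line. SRPK1, which phosphorylates SR proteins in the cytoplasm, changed by -0.68 ± 0.07 SE in A549 and -0.83 ± 0.07 in MDA-MB-231, and CLK1, a nuclear SR kinase, by -1.30 ± 0.15 in MDA-MB-231. Of 12 U1 snRNP and associated genes, 8 were lower and 0 higher in A549, and 6 lower and 4 higher in MDA-MB-231. LUC7L3, which helps select 5′ splice sites, changed by -1.89 ± 0.13 and -1.84 ± 0.13 SE in the 2 lines. Of 18 U2 snRNP and U2AF genes outside SF3, 13 were lower and 1 higher in A549, but 5 lower and 6 higher in MDA-MB-231. SNRPA1, a U2 protein, changed by -1.11 ± 0.08 SE in A549, and PUF60, which aids U2AF, by 0.91 ± 0.09 in MDA-MB-231.

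Among genes of later steps, of 19 tri-snRNP genes, 11 were lower and 2 higher in A549, and 4 lower and 11 higher in MDA-MB-231, where SART1 and PRPF6, both needed to assemble the tri-snRNP, changed by 0.85 ± 0.08 and 0.86 ± 0.09 SE. Of 16 exon junction and mRNA surveillance genes, 10 were lower and 2 higher in A549, and 6 lower and 9 higher in MDA-MB-231. UPF3B, which links the exon junction to decay, changed by -1.69 ± 0.14 SE in A549 and -0.48 ± 0.10 in MDA-MB-231. Sm and LSm ring genes (15 tested) were lower in 7 and higher in 3 in A549, and 5 and 5 in MDA-MB-231. Genes of the PRP19 complex and catalytic steps (28) were lower in 13 and higher in 2 in A549, and 11 and 9 in MDA-MB-231. Among 23 SR-related co-activators, 14 were lower in each line, with 6 higher in A549 and 5 in MDA-MB-231. PNN, a speckle protein, changed by -1.53 ± 0.10 SE in A549, where SRRM2 and SON, both scaffolds of speckles, changed by 1.51 ± 0.26 and 1.15 ± 0.15. Without A549 3D replicate 1 the change of SRRM2 was 0.942. The 8 minor spliceosome genes were lower in 3 and higher in 2 in A549, and 4 and 3 in MDA-MB-231. On log2(TPM + 1) 9 of the listed genes were called higher and 152 lower in A549, and 10 higher and 116 lower in MDA-MB-231. Of all genes 56.4% and 49.0% were called lower in that fit, and the share called higher is not given.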

How the data were processed

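RNA of 12 libraries (2 lines, 2 cultures, 3 each) was sequenced by the authors with a stranded, ribosome-depleted kit, per the labels' protocols. The deposited expected counts and TPM per gene came from RSEM on hg19, per the submitters' processing notes (version, aligner and strand handling: not given in the sources used here). The transcript lengths used are deposited beside them. Rounded expected counts of 15304 genes kept by filterByExpr were scaled with TMM and fitted over all 12 libraries with edgeR 4.0.16 (quasi-likelihood, 4 group means, Benjamini-Hochberg adjusted p under 0.05, two-sided) in R 4.3.3. Mean transcript length was fitted on the log2 scale with limma 3.58.1. The alternatives were other scalings, DESeq2 1.42.0, filters, log2(TPM + 1) and log2(TPM + 0.1) in limma, an effective length offset, a replicate block, structural RNA genes removed, a log2 bound of 0.5 and each library left out. The scripts were tested on simulated data. The genes, lists and tests were chosen with earlier results of these data known. Every gene could be named; library values are given for up to 3 per direction, family and comparison with the smallest p, up to 4 for the difference between lines and for length, with others added after their values were seen. Up to 3 per direction of each partner list were eligible. Promoter letters are RefSeq's, on GRCh38.p14.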

Additional observations from a re-analysis of the deposited data

Results flagged for a closer look

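The following genes changed in 3D by an amount that differed between A549 and MDA-MB-231 by the test of the difference itself (log2 scale, A549 minus MDA-MB-231, edgeR adjusted p under 0.05). Among SR genes the differences were -1.20 for SRSF9, -0.95 for SRSF7, -0.84 for SRSF2, -0.69 for SRSF4, -0.56 for SRSF3, -0.54 for SRSF5, -0.39 for SRSF1 and TRA2B, and 0.53 for SRSF10. Among hnRNP genes they were -1.36 for HNRNPL, -0.94 for HNRNPF, -0.84 for HNRNPA0, -0.82 for HNRNPAB, -0.63 for HNRNPM and -0.51 for HNRNPH2, and 0.46 for HNRNPLL, 0.60 for HNRNPD, 0.71 for HNRNPH3 and 1.30 for HNRNPA3. Among SF3 genes they were -1.15 for SF3B5, -1.02 for SF3B2, -0.90 for SF3A2, -0.43 for SF3A3, 0.44 for SF3B3 and 0.61 for SF3B6.

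Mean transcript length also changed differently in the 2 lines for 7 genes by limma's test of the difference. The differences on the log2 scale were 0.078 for SRSF2, 0.014 for SRSF6, -0.093 for SRSF10, 0.035 for HNRNPAB, 0.021 for HNRNPL, 0.0022 for HNRNPU and -0.0021 for HNRNPC. The call of SRSF10 was lost without any of 9 libraries, at -0.0962 to -0.0801, and that of HNRNPAB without any of 5, at 0.0319 to 0.0344. With the replicate block, SRSF2, SRSF6, SRSF10, HNRNPAB and HNRNPL all lost their calls (limma adjusted p = 0.0677 to 0.124). On effective length, HNRNPU and SRSF10 lost theirs (limma adjusted p = 0.087 and 0.0571).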

How the results depend on the processing

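Of 2041 values of single genes under alternatives that keep all libraries, 1773 kept their side of the threshold, 117 fell short of it, 116 newly passed and 35 that had passed reversed, while 65 that had not passed changed sign. Of 1158 values with 1 library left out, 1097 kept their side and 0 that had passed reversed, while 12 that had not passed changed sign. The counts of genes called in A549 3D against 2D were 30 to 37 in all, 4 to 8 higher and 26 to 29 lower with 1 library left out, and 28 to 31, 11 to 13 and 16 to 19 in MDA-MB-231. For the difference between lines they were 23 to 28, 6 to 9 and 17 to 20, for the lines in 2D 38 to 41, 11 to 11 and 27 to 30, and in 3D 38 to 41, 4 to 5 and 34 to 36. The member medians ran from -0.44 to -0.37, -0.14 to -0.12, -0.27 to -0.20, -0.50 to -0.43 and -0.72 to -0.65 in the same order. For length the counts of genes called, longer and shorter were 7 to 12, 4 to 7 and 3 to 5 in A549, 2 to 5, 0 to 2 and 2 to 3 in MDA-MB-231, and 5 to 8, 4 to 6 and 1 to 2 for the difference.

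Beyond a log2 change of 0.5, which asks for a larger change, 14 genes were called in A549 (0 higher, 14 lower), 9 in MDA-MB-231 (3 higher, 6 lower), 11 for the difference (1 higher, 10 lower) and 23 for the lines in 2D (4 higher, 19 lower). Shares of all genes are not given for this bound, for effective length or for the replicate block. Those counts are therefore not set against the other genes. With limma on log2(TPM + 1), on log2(TPM + 0.1), or on log2(TPM + 1) with no filter, 0 genes were higher in A549, 2 higher and 30 lower in MDA-MB-231, and 1 higher in A549 than in MDA-MB-231 in either culture. With TPM rescaled without structural RNA genes, an alternative chosen after seeing the data, 2 were higher in A549 and 4 in MDA-MB-231. The share of all genes called higher is not given for any of these TPM fits. On log2(TPM + 1), 49.0% of all genes were called lower in MDA-MB-231.

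On log2(TPM + 1), with and without the filter, the values that turned were HNRNPD -0.064, SF3B3 -0.28 and SF3B6 -0.36 in A549. In MDA-MB-231 they were HNRNPA0 -0.17, HNRNPH2 -0.086, HNRNPUL2 -0.042, SRSF5 -0.10 and SRSF8 -0.21, and between the lines in 3D HNRNPLL -0.10 and SF3B1 -0.12. On log2(TPM + 0.1) HNRNPD was -0.068, SF3B3 -0.29, SF3B6 -0.36, HNRNPA0 -0.17, HNRNPH2 -0.087, HNRNPUL2 -0.043, SRSF5 -0.10, SRSF8 -0.22, HNRNPLL -0.11 and SF3B1 -0.12. With the rescaled TPM, HNRNPA0 was -0.13, HNRNPH2 -0.047, HNRNPUL2 -0.0030, SRSF5 -0.060 and SRSF8 -0.17. The cause was not tested.

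Effective length, which subtracts the fragment length by construction, gave 39 length calls in A549 (37 longer, 2 shorter), 37 in MDA-MB-231 (34 longer) and 0 shorter for the difference. On it HNRNPC turned to 0.018 and SRSF7 to 0.025 in A549, and HNRNPC to 0.0043 for the difference. With A549 alone fitted, 6 lengths were called (3 longer).

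No pairing by replicate number was seen. Same-numbered libraries had correlations of deviations of -0.0296, 0.0494 and 0.0192 in A549 and -0.0263, 0.0745 and -0.0555 in MDA-MB-231. Not every library correlated best with its own number. With 3 libraries per group this cannot show that the cultures were not run in pairs. With the replicate block, 32 genes were called in A549, 29 in MDA-MB-231 and 26 for the difference. For length the replicate block gave 6 calls (3 longer) in A549, 2 (0 longer) in MDA-MB-231 and 2 (1 longer, 1 shorter) for the difference. SRSF12 had at most 53 counts in a library, which limits its precision.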

Other observations

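The 10th list of splicing genes, 41 tissue and alternative splicing regulators of which 36 were tested, had 18 lower and 8 higher in A549 3D and 16 lower and 13 higher in MDA-MB-231 3D (edgeR, adjusted p under 0.05). RBM24, a muscle splicing regulator, changed by -1.81 in A549 and -2.78 in MDA-MB-231 on the log2 scale, and MBNL2, a muscleblind protein, by -1.42 and -1.71.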
